A study of Homo sapiens with 26 samples.

Results

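The genes described here encode CDK1, the kinase whose activation takes a cell into mitosis, together with its cyclin B partners and the enzymes that switch it on or hold it off. They are CDK1, CCNB1, CCNB2, CDC25B, CDC25C, PLK1, AURKA, BORA, WEE1 and PKMYT1, which make up 10 of the 30331 named genes measured. They were taken as a named pathway, with earlier results of these data known. Their RNA was measured by bulk RNA sequencing in tumors of ZR751, an established human breast cancer line that is HR+ HER2-, grown under the skin of female NSG mice, which lack mature T, B and natural killer cells and keep myeloid cells. Resistant tumors (5 mice) had received the CDK4 inhibitor atirmociclib (PF-07220060) for 84 to 91 days, at 60 mg/kg by mouth 2 times a day with 7 hours between doses. Sensitive tumors (3 mice) had received the same dose for 3 days, and vehicle tumors (5 mice) had received vehicle, labelled DMSO, for 3 days. Dosing began at a mean volume of 150 mm3, and tumors of all 3 groups were removed 3 hours after the last dose. Long-treated and 3-day tumors belong to different studies, and the long one has no vehicle arm here, so treatment length, study and resistance cannot be told apart in any comparison that uses them. All tumors derive from the same cell line, and each gave 2 libraries, A and B, which were averaged so that the mouse was the replicate.

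Cyclin B binds CDK1 during G2 and the complex stays inactive while WEE1, in the nucleus, and PKMYT1 (MYT1), at the endoplasmic reticulum and Golgi membranes, phosphorylate the inhibitory residues of CDK1. The phosphatases CDC25B and CDC25C take these phosphates off, and PLK1, itself activated by Aurora A (AURKA) with its cofactor Bora (BORA), promotes the activation of CDC25 and the destruction of WEE1. CDK4 acts earlier, in G1, by phosphorylating RB1, and in cells held in G1 the genes of mitotic entry are kept low by the DREAM complex and are switched on in G2 by MYBL2 with the MuvB core and FOXM1. In breast cancer these genes are part of the proliferation signatures that follow tumor growth rate.

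Values are TPM as deposited, a measure of transcripts per length and per library total in which levels of different genes can be set side by side, and sequencing depth is unknown because no read counts were used. Libraries A and B of a mouse correlated across genes at 0.989 to 0.994, though genes are not independent replicates. All 10 genes passed the filter on low values, a mean of at least 1 TPM in at least 3 mice, as did 14079 genes in all. MKI67 fell to 1.36 ± 0.550 TPM in sensitive tumors (SD, n = 3) and to 6.24 ± 2.97 TPM in resistant tumors (SD, n = 5), against 45.8 ± 8.07 TPM in vehicle tumors (SD, n = 5; limma, adjusted p = 3.39e-07 and 6.04e-06). Of 3 other proliferation genes, TOP2A averaged 14.8 TPM in resistant, 4.78 TPM in sensitive and 102.5 TPM in vehicle tumors. PCNA averaged 72.3, 38.8 and 116.5 TPM in the same order, and both genes were called in all 3 comparisons. MCM2, a replication licensing gene, averaged 44.8 TPM in resistant, 26.4 TPM in sensitive and 56.9 TPM in vehicle tumors and was called only in sensitive versus vehicle (adjusted p = 0.0224, against 0.118 in resistant versus sensitive and 0.190 in resistant versus vehicle). The summed level of 8 luminal epithelial markers was 10300 to 13800 TPM in resistant, 7390 to 9510 TPM in sensitive and 7970 to 12200 TPM in vehicle tumors, none of the 8 being at 0. KRT8, KRT18 and KRT19, which averaged 3663, 2167 and 4253 TPM in resistant tumors, made up most of this sum. In resistant versus vehicle tumors KRT19 was called higher and GATA3, EPCAM and FOXA1 lower (limma, adjusted p = 6.8e-04, 2.4e-04, 0.0017 and 0.017). The other 4 were not called. Of all tested genes 11.5% were called higher and 32.5% lower in this comparison. After median-of-ratios scaling EPCAM and FOXA1 lost their call and KRT18 was called higher. The summed level of 5 leukocyte markers was 5.66 to 14.8 TPM in resistant tumors, in all of which PTPRC and CD3E were at 0. It was 2.76 to 6.08 TPM in sensitive and 1.86 to 4.5 TPM in vehicle tumors. CD68 and LYZ, markers of macrophages, were called higher in resistant tumors against either other group (limma, adjusted p = 0.0240 and 0.00602 against sensitive, 5.14e-04 and 1.97e-04 against vehicle), and their part in the results on resistant tumors was not tested. How reads of the mouse host were handled is unknown here, so these low marker levels may include host reads. Endothelial markers reached at most 0.645 TPM summed and fibroblast markers 13.1 TPM. In bulk tumors, fewer dividing cells and less RNA per cell cannot be told apart.

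Promoters of mitotic entry genes are known for CCAAT boxes and for a short element, the cell cycle genes homology region (CHR), near the start of transcription. Of the 10 genes, 7 matched the RefSeq promoter table (assembly GRCh38.p14), with 14 start sites among them, while AURKA, WEE1 and PKMYT1 did not match. The 200 bases before 1 start of 6 genes are shown 5′ to 3′, as examples from genes that changed together. The CHR letters TTTGAA or TTCGAA and the CCAAT box (ATTGG on the other strand) are in capitals. The windows are chr10:60778278-60778477 for CDK1 (plus strand, the downstream of its 2 starts in the table), chr5:69166950-69167149 for CCNB1 (plus), chr15:59104946-59105145 for CCNB2 (plus), chr5:138331805-138332004 for CDC25C (minus, 1 of 4 starts), chr16:23678689-23678888 for PLK1 (plus) and chr13:72727723-72727922 for BORA (plus).
CDK1: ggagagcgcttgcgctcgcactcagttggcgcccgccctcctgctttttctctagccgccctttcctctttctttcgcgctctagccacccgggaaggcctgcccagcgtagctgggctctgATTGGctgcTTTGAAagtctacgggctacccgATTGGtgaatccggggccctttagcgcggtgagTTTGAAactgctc
CCNB1: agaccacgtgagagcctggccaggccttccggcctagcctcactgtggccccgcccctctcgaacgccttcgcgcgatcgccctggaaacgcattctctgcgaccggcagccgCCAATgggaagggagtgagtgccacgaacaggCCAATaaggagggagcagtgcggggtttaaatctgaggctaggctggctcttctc
CCNB2: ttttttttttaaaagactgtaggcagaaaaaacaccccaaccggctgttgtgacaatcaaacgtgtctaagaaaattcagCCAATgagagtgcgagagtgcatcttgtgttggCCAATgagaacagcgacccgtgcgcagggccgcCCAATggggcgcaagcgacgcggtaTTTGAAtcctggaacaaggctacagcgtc
CDC25C: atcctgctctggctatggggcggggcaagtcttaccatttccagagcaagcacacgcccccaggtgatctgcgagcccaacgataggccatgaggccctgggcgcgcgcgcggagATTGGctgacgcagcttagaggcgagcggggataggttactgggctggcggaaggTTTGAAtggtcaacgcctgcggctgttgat
PLK1: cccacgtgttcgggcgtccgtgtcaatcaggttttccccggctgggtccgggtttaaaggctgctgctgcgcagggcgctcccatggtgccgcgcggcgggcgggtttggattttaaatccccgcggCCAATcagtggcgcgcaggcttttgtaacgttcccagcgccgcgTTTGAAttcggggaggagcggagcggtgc
BORA: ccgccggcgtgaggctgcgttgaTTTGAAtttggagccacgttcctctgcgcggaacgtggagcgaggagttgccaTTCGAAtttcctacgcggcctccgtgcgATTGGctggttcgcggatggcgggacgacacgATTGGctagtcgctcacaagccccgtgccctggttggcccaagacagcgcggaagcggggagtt
With positions counted from the first base of a motif as printed, the CHR letters began 29 bases before the start in CCNB2 and in PLK1 and 30 bases before it in CDC25C. In CDK1 they began 13 and 69 bases before the start, and in BORA 124 and 177 bases before it. CCNB1 had CCAAT boxes at 55 and 87 bases and no CHR letters, and CCNB2 had 3 boxes in the shown stretch, spaced evenly at 54, 87 and 120 bases. Counted over the 250 bases before each start and on both strands, the CHR letters and a CCAAT box occurred in the same window for 6 of the 7 matched genes, the sixth being CDC25B, with TTCGAA at 38 and ATTGG at 73 bases before 1 of its 4 starts. Other starts of CDC25C and CDC25B had less. The CDC25C starts at 138338341 and 138338355 and the CDC25B starts at 3786951 and 3800048 had neither motif. Those at 138331877 (CDC25C) and 3795789 (CDC25B) had CCAAT boxes only. Of all 35116 windows in the table, 14.3% held the CHR letters, 32.0% held a CCAAT box and 5.05% held both, against 7 of the 14 windows of the matched genes that held both. A match of letters is a description of the sequence only.

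The comparison of sensitive with vehicle tumors asks what 3 days of CDK4 inhibition did to these genes. All 10 fell, by amounts that ran over more than 3 log2 units: PLK1 and CDK1 fell most and WEE1, an inhibitor of CDK1, least. Among all tested genes 12.6% were called lower in this comparison (limma, adjusted p under 0.05). Every sensitive tumor was below every vehicle tumor for 10 of 10 genes, a separation seen in this direction for 16.4% of all tested genes. Log2 changes are given relative to the median change of all genes, with the SE and adjusted p as fitted by limma on log2(TPM + 1), a scale that understates changes of genes near or under 1 TPM.

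The kinase and its cyclins came down together. CDK1 (chromosome 10, 60778331 to 60794852) had 4.29, 1.55 and 5.46 TPM in the 3 sensitive tumors, against 72.7, 57.3, 52.3, 73.9 and 63.3 TPM in vehicle tumors. The highest sensitive tumor was therefore far under the lowest vehicle tumor, and the sensitive mean was 5.89% of the vehicle mean. CDK1 changed by -3.79 ± 0.35 (log2, SE, adjusted p = 3.68e-06). CCNB1, cyclin B1 (chromosome 5, 69167010 to 69178245), had 9.83, 10.4 and 10.6 TPM in sensitive tumors, against 94.9, 73.2, 65.4, 95.9 and 82.7 TPM in vehicle tumors. The 3 sensitive values lay within 1 TPM of each other, and the change was -2.80 ± 0.12 (adjusted p = 3.40e-09). CCNB2, cyclin B2 (chromosome 15, 59105078 to 59125045), averaged 4.18 ± 1.42 TPM in sensitive tumors (SD, n = 3) and 54.3 ± 11.5 TPM in vehicle tumors (SD, n = 5), a change of -3.36 ± 0.23 (adjusted p = 1.75e-07).

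PLK1, the kinase that feeds back on CDC25 and WEE1 (chromosome 16, 23677656 to 23690367), had the largest fall of the 10. It had 2.07, 1.91 and 3.50 TPM in sensitive tumors, against 79.6, 67.5, 54.8, 93.6 and 65.4 TPM in vehicle tumors, and only 2 of the 14079 tested genes had a lower change. The sensitive mean was 3.45% of the vehicle mean. Its activators fell by less. AURKA (chromosome 20, 56369389 to 56392337) had 10.8, 11.4 and 12.5 TPM in sensitive tumors, against 82.9, 73.3, 78.1, 82.0 and 90.2 TPM in vehicle tumors, a change of -2.64 ± 0.08 (adjusted p = 2.27e-10). BORA (chromosome 13, 72727749 to 72756198) averaged 3.16 ± 0.185 TPM in sensitive tumors (SD, n = 3) and 13.02 ± 1.41 TPM in vehicle tumors (SD, n = 5), a change of -1.68 ± 0.10 (adjusted p = 4.62e-08). The sensitive mean was thus 24.3% of the vehicle mean for BORA and 14.2% for AURKA.

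Both activating phosphatases fell as well. CDC25C (chromosome 5, 138285265 to 138338355) had 1.08, 0.700 and 0.505 TPM in sensitive tumors, against 10.5, 9.76, 6.64, 11.9 and 9.38 TPM in vehicle tumors. These are the lowest levels of the 10 genes, and libraries A and B of a mouse differed more for CDC25C than for the others, with a median ratio of the larger to the smaller of 1.41. The change was -2.52 ± 0.21 (adjusted p = 1.03e-06). CDC25B (chromosome 20, 3786772 to 3806121) averaged 5.02 ± 1.81 TPM in sensitive tumors (SD, n = 3) and 24.6 ± 5.36 TPM in vehicle tumors (SD, n = 5), a change of -2.03 ± 0.25 (adjusted p = 5.12e-05).

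The inhibitory kinases fell too, but to different depths. WEE1 (chromosome 11, 9573681 to 9593457) had 13.5, 10.1 and 9.96 TPM in sensitive tumors, against 28.1, 24.2, 31.0, 23.6 and 26.6 TPM in vehicle tumors. No sensitive tumor reached the vehicle range, yet the sensitive mean was still 42.0% of the vehicle mean, the highest share among the 10 genes, and the change was -1.12 ± 0.20 (adjusted p = 0.00121). PKMYT1 (chromosome 16, 2968024 to 2980539) had 17.8, 4.89 and 16.1 TPM in sensitive tumors, against 73.2, 63.9, 53.1, 86.5 and 50.4 TPM in vehicle tumors. Mouse 6-5 stood lowest, and the change was -2.32 ± 0.44 (adjusted p = 0.00220). All 10 calls in this comparison held in each of the 24 alternative settings run.

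**Figure D1:**
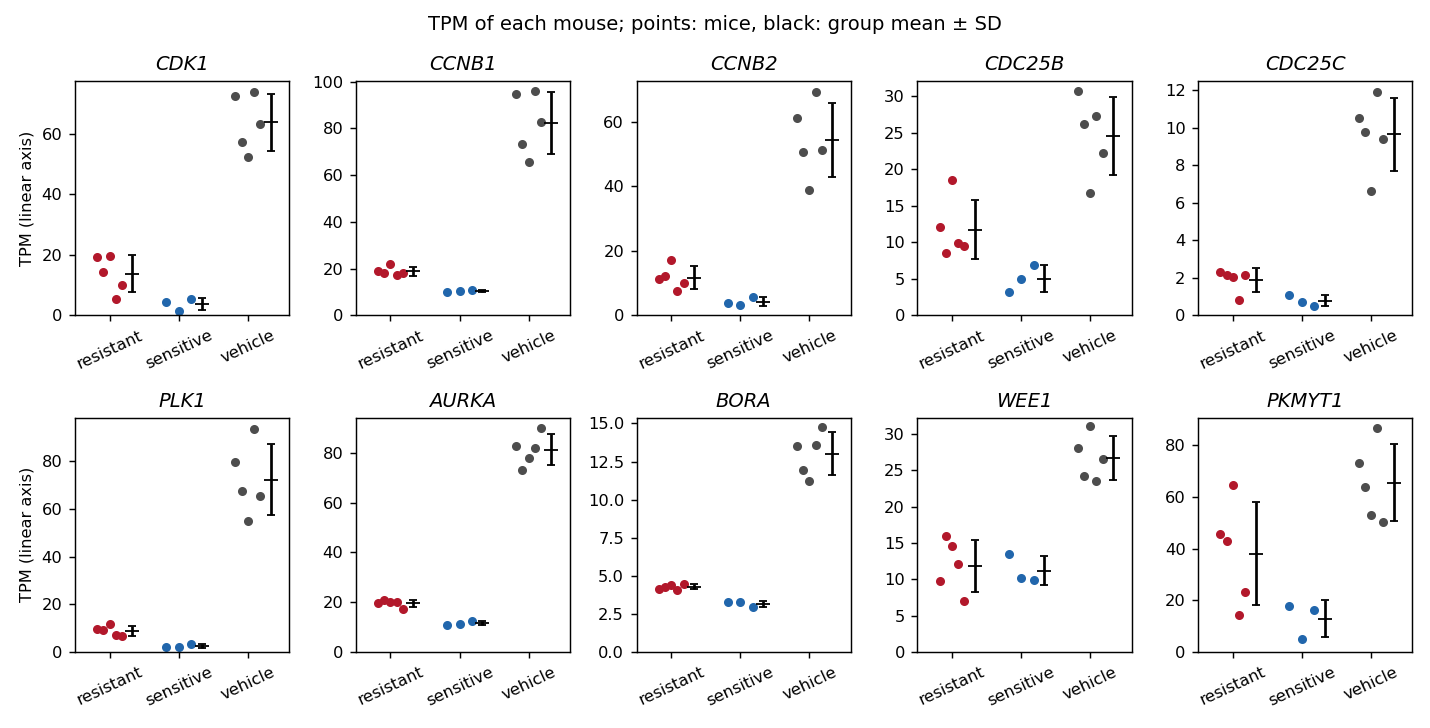
TPM of each of the 10 genes (linear axes) in resistant (red), sensitive (blue) and vehicle (grey) tumors, where each point is a mouse and black marks give the group mean ± SD. Every sensitive tumor lies under every vehicle tumor for all 10 genes, and only CDC25B and PKMYT1 have a resistant tumor inside the vehicle range.

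The comparison of resistant with sensitive tumors asks how far these genes differed after long treatment. Of the 10 genes, 9 were higher in resistant tumors, against 9.56% of all tested genes called higher in this comparison, and WEE1 was not called. For 7 genes every resistant tumor was above every sensitive tumor by the plain mean TPM of libraries A and B. This separation was seen for 12.3% of all tested genes, while CDC25C, WEE1 and PKMYT1 overlapped. For CDK1 it rests on the average used. Resistant tumor 9-8 had 5.475 TPM (libraries 6.22 and 4.73) and sensitive tumor 6-6 had 5.455 TPM (libraries 5.13 and 5.78).

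CDK1 had 19.1, 14.4, 19.7, 5.48 and 9.96 TPM in the 5 resistant tumors, against the 1.55 to 5.46 TPM of sensitive tumors. The lowest resistant tumor, 9-8, was within 0.1 TPM of the highest sensitive one, and the change was 1.66 ± 0.35 (adjusted p = 0.00717). CCNB1 had 18.7, 17.9, 22.01, 17.4 and 18.1 TPM in resistant tumors, against at most 10.6 TPM in sensitive tumors. Its groups were widely apart, and it changed by 0.86 ± 0.12 (adjusted p = 7.79e-04). CCNB2 averaged 11.6 ± 3.46 TPM in resistant tumors (SD, n = 5) and 4.18 TPM in sensitive tumors, a change of 1.33 ± 0.23 (adjusted p = 0.00238).

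PLK1 had 9.47, 9.09, 11.7, 7.22 and 6.79 TPM in resistant tumors, each above the 3.50 TPM of the highest sensitive tumor, a change of 1.55 ± 0.20 (adjusted p = 3.98e-04). AURKA had 19.5, 20.7, 20.1, 20.0 and 17.3 TPM in resistant tumors, against at most 12.5 TPM in sensitive tumors, a change of 0.75 ± 0.08 (adjusted p = 2.10e-04). For both kinases the groups were clearly apart. BORA had 4.10 to 4.48 TPM in resistant tumors and 2.95 to 3.28 TPM in sensitive tumors, and its change of 0.39 ± 0.10 (adjusted p = 0.0273) was the smallest of those called.

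Of the phosphatases, CDC25B averaged 11.7 ± 4.06 TPM in resistant tumors (SD, n = 5), against 5.02 TPM in sensitive tumors, a change of 1.12 ± 0.25 (adjusted p = 0.00933). CDC25C had 2.31, 2.12, 2.03, 0.790 and 2.16 TPM in resistant tumors, a change of 0.72 ± 0.21 (adjusted p = 0.0351) against sensitive tumors. Resistant tumor 9-8 lay inside the sensitive range of 0.505 to 1.08 TPM and the other 4 above it.

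Of the inhibitory kinases, PKMYT1 was called and WEE1 was not, but the difference in their ratio did not pass the test (PKMYT1/WEE1 1.53 higher on the log2 scale in resistant than in sensitive tumors, with overlap, exact permutation p = 0.107, adjusted p = 0.132). PKMYT1 had 45.5, 42.8, 64.7, 14.4 and 23.1 TPM in resistant tumors, a change of 1.53 ± 0.44 (adjusted p = 0.0282) against sensitive tumors. WEE1 had 9.79, 15.9, 14.6, 12.1 and 7.03 TPM in resistant tumors, against 13.5, 10.1 and 9.96 TPM in sensitive tumors. The resistant values of WEE1 lay on both sides of the sensitive ones, with a change of 0.09 ± 0.20 (adjusted p = 0.903).

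The calls of CDK1, CCNB1, CCNB2, PLK1 and AURKA in this comparison held in all 24 alternative settings, and the others did not. Leaving out sensitive tumor 6-5 left 6 of 10 genes called, since CDC25C, BORA and PKMYT1 then had adjusted p = 0.104, 0.0721 and 0.155. PKMYT1 also lost its call without resistant tumor 9-3, 9-6 or 9-7 (adjusted p = 0.0583, 0.0596 and 0.0555). CDC25C lost it without sensitive tumor 6-6 or without resistant tumor 9-3, 9-6, 9-7 or 9-9 (highest adjusted p = 0.123), and with B libraries alone (adjusted p = 0.130). BORA lost it without either of the other sensitive tumors, 6-4 and 6-6 (adjusted p = 0.0641 and 0.0931), and CDC25B without 6-4 (adjusted p = 0.0573).

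The comparison of resistant with vehicle tumors asks how close these genes came to their untreated level. Of the 10 genes, 9 were lower in resistant tumors, against 32.5% of all tested genes called lower, and PKMYT1 was not called. Every resistant tumor was below every vehicle tumor for 8 genes, a separation seen for 20.6% of all tested genes. The resistant mean as a share of the vehicle mean ran from 12.3% for PLK1, through 21.4% for CCNB2, 21.5% for CDK1, 22.8% for CCNB1 and 24.0% for AURKA, to 58.2% for PKMYT1.

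PLK1 changed by -2.76 ± 0.17 (adjusted p = 1.10e-07) and only 5 tested genes had a lower change. CDK1 changed by -2.11 ± 0.31 (adjusted p = 8.93e-05), CCNB1 by -1.93 ± 0.10 (adjusted p = 3.56e-08) and CCNB2 by -2.01 ± 0.20 (adjusted p = 4.18e-06), so that the changes of the kinase and both cyclins lay close together. AURKA changed by -1.87 ± 0.07 (adjusted p = 2.01e-09) and BORA by -1.28 ± 0.09 (adjusted p = 1.54e-07). CDC25C changed by -1.79 ± 0.18 (adjusted p = 4.68e-06) and CDC25B by -0.89 ± 0.21 (adjusted p = 0.00193). One resistant tumor, 9-7, had 18.6 TPM of CDC25B, above the lowest vehicle tumor at 16.7 TPM.

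WEE1 averaged 11.9 ± 3.59 TPM in resistant tumors (SD, n = 5) and 26.7 ± 3.03 TPM in vehicle tumors (SD, n = 5), with no overlap, and changed by -1.01 ± 0.17 (adjusted p = 2.07e-04). PKMYT1 averaged 38.1 ± 19.8 TPM in resistant tumors and 65.4 ± 14.9 TPM in vehicle tumors, and its change of -0.78 ± 0.38 missed the threshold (adjusted p = 0.0645). Resistant tumor 9-7, at 64.7 TPM, lay inside the vehicle range of 50.4 to 86.5 TPM and the other 4 below it. The call of PKMYT1 turned on the setting, being made without resistant tumor 9-7 (adjusted p = 0.0254) and without sensitive tumor 6-5 (adjusted p = 0.0348), which enters through the shared estimate of spread. The call was also made with only the 2 compared groups in the fit (adjusted p = 0.0443). With libraries as units, mouse as a random effect and the library letter as a replicate block, adjusted p was 0.00946. The comparison with vehicle and that with sensitive tumors use the same resistant tumors, so they are not independent.

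The share of all tested genes called lower depends on scaling, whereas the counts of these 10 genes (10, 9 and 9) were the same under both other scalings tried. In resistant versus vehicle tumors 4570 tested genes were lower and 1624 higher as deposited, 2439 lower and 2542 higher after median-of-ratios scaling, and 2770 lower and 2343 higher after quantile normalization. In sensitive versus vehicle tumors these numbers were 1767 lower and 445 higher, 1061 lower and 788 higher, and 984 lower and 930 higher. In resistant versus sensitive tumors they were 1631 lower and 1346 higher, 1351 lower and 1701 higher, and 1807 lower and 1465 higher.

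**Figure D2:**
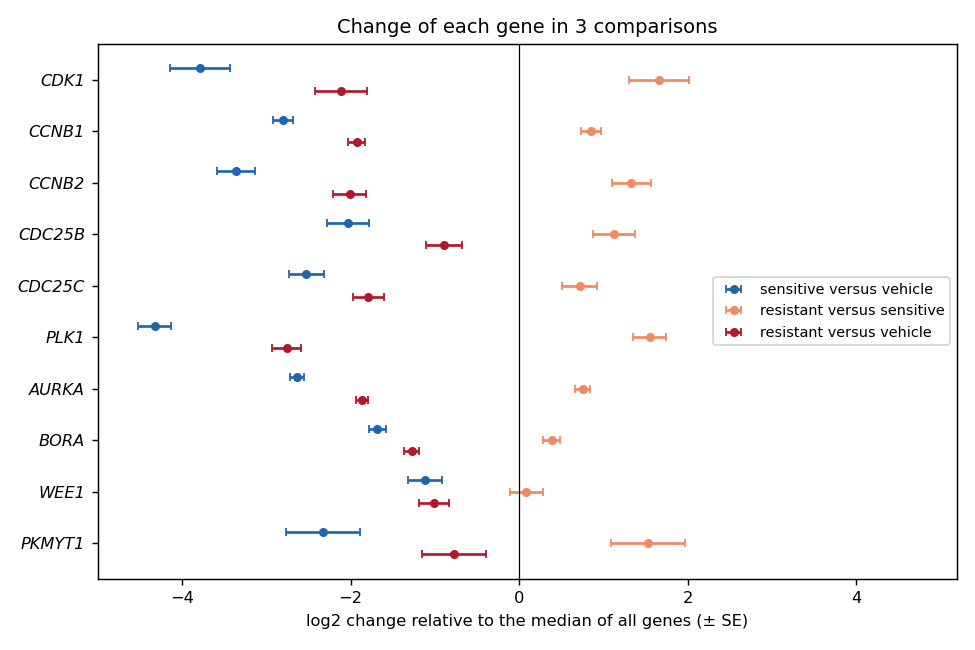
Log2 change of each gene relative to the median of all genes (x axis, ± SE from limma) in sensitive versus vehicle (blue), resistant versus sensitive (orange) and resistant versus vehicle tumors (dark red). PLK1 lies farthest from 0 in both comparisons with vehicle, at -4.33 and -2.76, and WEE1 is the gene whose point for resistant versus sensitive, 0.09, lies within its SE of 0.

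The order of the 10 levels differed between the groups. In vehicle tumors CCNB1 and AURKA (81.3 ± 6.24 TPM) were the most abundant, followed by PLK1 (72.2 ± 14.9 TPM), PKMYT1, CDK1 and CCNB2, neighbours that overlapped from mouse to mouse. WEE1 and CDC25B came next, then BORA, and CDC25C was lowest. In sensitive tumors PKMYT1 (12.9 ± 7.01 TPM), AURKA (11.6 ± 0.895 TPM), WEE1 (11.2 ± 2.01 TPM) and CCNB1 (10.3 ± 0.404 TPM) stood at the top, each overlapping its neighbour in this order, and PLK1 was second from the bottom. In resistant tumors PKMYT1 was the highest on average, and CDK1 (13.7 ± 6.07 TPM), WEE1, CDC25B and CCNB2 lay close together between 11.6 and 13.7 TPM and overlapped.

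The resistant tumors differed among themselves far more for some of these genes than for others. The coefficient of variation across the 5 mice was 52.0% for PKMYT1 and 44.2% for CDK1, against 9.81% for CCNB1, 6.67% for AURKA and 3.83% for BORA. The same held in the 3 sensitive tumors, so it is not particular to resistant ones. There it was 54.26% for PKMYT1 and 53.35% for CDK1, against 3.93% for CCNB1, 7.74% for AURKA and 5.86% for BORA. The highest resistant tumor had 4.496 times the PKMYT1 level of the lowest tumor. For CDK1 this ratio was 3.60 and for AURKA 1.196. Tumor 9-7 was the highest of the 5 for 6 of the 10 genes and 9-8 the lowest for 6. In the same tumors MKI67, a general marker of cycling cells, was also highest in 9-7 (8.91 TPM) and lowest in 9-8 (2.36 TPM). The 2 libraries of 9-8 had 6.22 and 4.73 TPM of CDK1, a difference small beside that between 9-8 and 9-7 (19.7 TPM). Among vehicle tumors, where no coefficient of variation of the 10 genes was above 22.8%, 1-6 was the highest for 6 genes and 1-5 the lowest for 7.

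**Figure D3:**
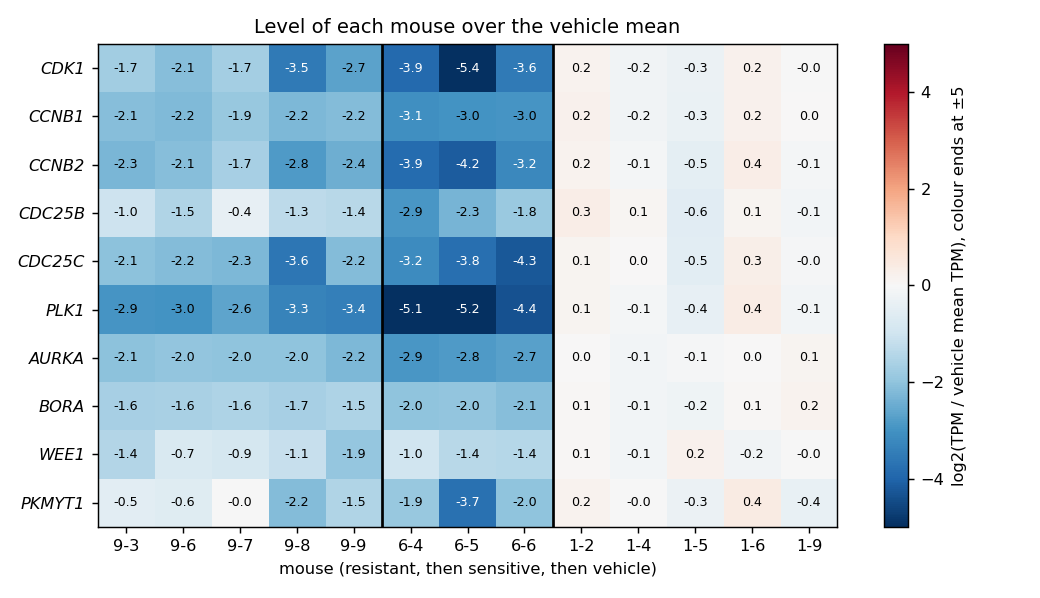
Level of each gene (rows) in each mouse (columns; resistant, sensitive and vehicle blocks from left to right) as log2 of its TPM over the mean TPM of vehicle tumors, printed in each cell, with blue for lower and red for higher. In resistant tumors the CDK1 and PKMYT1 rows vary along the row while the AURKA, BORA and CCNB1 rows are nearly uniform, and tumor 9-8 has the lowest cell of the resistant block for both CDK1 and PKMYT1.

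Ratios between genes of opposing or linked function were compared within each mouse, as log2(TPM + 0.1) of the gene named first minus that of the other. Apart from the pseudocount, a ratio does not depend on the scaling of a library. With 7 ratios in 3 comparisons, 21 exact two-sided permutation tests were run, and p-values were adjusted over these 21. In 3 against 5 mice the smallest exact p is 0.0357 and in 5 against 5 mice it is 0.00794. After adjustment 4 of the 21 differences passed, each between resistant and vehicle tumors. No test with sensitive tumors passed, since even their smallest exact permutation p gave adjusted p = 0.0536. Passing therefore does not set resistant tumors apart. Between sensitive and vehicle tumors the differences were 2.82 for BORA/PLK1, 2.04 for AURKA/PLK1 and 1.71 for PKMYT1/CDK1, all without overlap. They were 1.43, 0.97 and 1.41 between resistant and vehicle tumors. For CDC25B/CDC25C they were 1.265 and 1.327.

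Relative to CDK1, PKMYT1 stood higher in resistant than in vehicle tumors, while the like difference for WEE1 missed the threshold after adjustment. WEE1/CDK1 averaged 1.71 ± 0.894 in sensitive tumors (log2, SD, n = 3), where WEE1 exceeded CDK1 in 3 of 3 mice, and -1.25 ± 0.325 in vehicle tumors (n = 5), where CDK1 exceeded WEE1 in 5 of 5. These groups did not overlap, and the difference of 2.96 had the smallest p the design allows (exact permutation p = 0.0357, adjusted p = 0.0536). In resistant tumors the same ratio ran from -0.96 to 1.14 and overlapped both other groups, with a difference of 1.13 from vehicle tumors (exact permutation p = 0.0159, adjusted p = 0.0536). PKMYT1/CDK1 was more even, at 1.42 ± 0.212 in resistant tumors (n = 5) and 1.73 ± 0.266 in sensitive tumors (n = 3), against 0.02 ± 0.214 in vehicle tumors (n = 5). In the 5 resistant tumors this ratio was 1.24, 1.56, 1.71, 1.39 and 1.21, and in the 5 vehicle tumors 0.005, 0.16, 0.02, 0.23 and -0.33. PKMYT1 and CDK1 thus stood at nearly equal TPM in vehicle tumors, while PKMYT1 was 2.68 times as abundant as CDK1 in resistant tumors, and the difference of 1.41 passed the test (exact permutation p = 0.00794, adjusted p = 0.0417). The PKMYT1/CDK1 ratio varied little across the resistant tumors although both genes varied widely. PKMYT1/WEE1 was 1.25 lower in sensitive than in vehicle tumors, without overlap, and 0.28 higher in resistant than in vehicle tumors, with overlap (exact permutation p = 0.0357 and 0.516, adjusted p = 0.0536 and 0.542).

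Among the activators, both BORA and AURKA stood higher relative to PLK1 in resistant than in vehicle tumors. BORA/PLK1 averaged -1.01 ± 0.316 in resistant tumors (log2, n = 5) and 0.38 ± 0.540 in sensitive tumors (n = 3), against -2.44 ± 0.248 in vehicle tumors (n = 5). All 3 groups were apart from each other, and the difference of 1.43 between resistant and vehicle tumors passed the test (exact permutation p = 0.00794, adjusted p = 0.0417). AURKA/PLK1 averaged 1.16 ± 0.268 in resistant and 2.23 ± 0.371 in sensitive tumors, against 0.19 ± 0.294 in vehicle tumors, again with no overlap between any groups. The difference between resistant and vehicle tumors was 0.97 (exact permutation p = 0.00794, adjusted p = 0.0417), and that between resistant and sensitive tumors -1.07 (exact permutation p = 0.0357, adjusted p = 0.0536). CDC25B/CDC25C averaged 2.66 ± 0.665 in resistant tumors (n = 5) and 2.601 ± 0.981 in sensitive tumors (n = 3), against 1.34 ± 0.142 in vehicle tumors (n = 5). CDC25B was thus 6.34 times as abundant as CDC25C in resistant tumors and 2.53 times in vehicle tumors, and this difference of 1.33 passed the test (exact permutation p = 0.00794, adjusted p = 0.0417). CDC25C had 0.505 to 1.08 TPM in sensitive and 0.79 to 2.305 TPM in resistant tumors. With a pseudocount of 1, which is near these levels, the difference was 0.89. CCNB1/CCNB2 averaged 0.74 ± 0.310 in resistant and 1.34 ± 0.431 in sensitive tumors, against 0.61 ± 0.116 in vehicle tumors. Its difference of 0.72 between sensitive and vehicle tumors came without overlap (exact permutation p = 0.0357, adjusted p = 0.0536), and resistant tumors overlapped both.

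**Figure D4:**
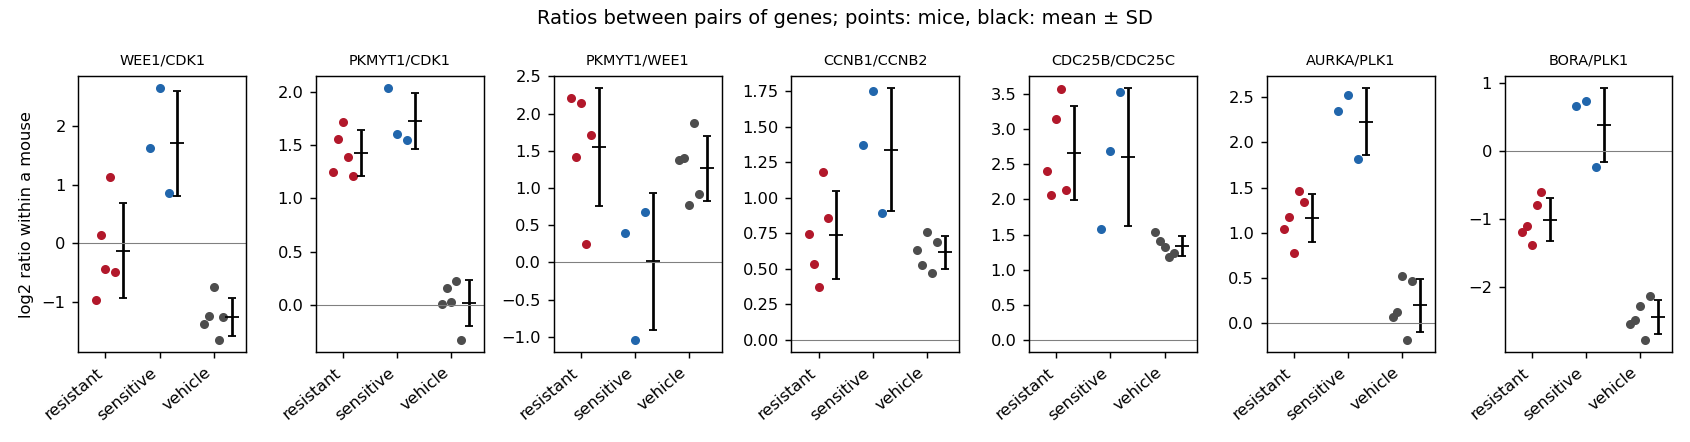
Within-mouse log2 ratios of TPM for 7 pairs of genes in resistant (red), sensitive (blue) and vehicle (grey) tumors, where points are mice and black marks the mean ± SD. PKMYT1/CDK1 lies between 1.21 and 2.03 in all treated tumors and between -0.33 and 0.23 in vehicle tumors, and BORA/PLK1 separates all 3 groups.

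The rest of the machinery of mitotic entry was followed through 26 other genes, of which 25 passed the filter. In sensitive versus vehicle tumors 16 of the 25 were lower and 0 higher, and the other 9 were not called. Under either other scaling 14 were lower. Of all tested genes 12.6% were called lower and 3.16% higher in this comparison. The largest falls among the 25 were those of 2 kinases and a cyclin. AURKB, the kinase of the chromosomal passenger complex, changed by -3.69 ± 0.25 (adjusted p = 1.92e-07). NEK2, a centrosome kinase, changed by -3.62 ± 0.26 (adjusted p = 2.66e-07) and CCNA2, cyclin A2, by -3.60 ± 0.22 (adjusted p = 6.11e-08). TPX2, which activates Aurora A on the spindle, changed by -3.46 ± 0.23 (adjusted p = 1.25e-07). MASTL, the Greatwall kinase, which holds off the phosphatase PP2A-B55, changed by -1.14 ± 0.18 (adjusted p = 4.29e-04). The kinases CHEK1, CDK2 and CHEK2 changed by -1.44 ± 0.18, -0.82 ± 0.11 and -0.55 ± 0.10 (adjusted p = 7.08e-05, 8.85e-05 and 5.72e-04). Of the other cyclins, CCNH changed by -0.25 ± 0.08 (adjusted p = 0.0130), a call lost under either other scaling. CCNB3 changed by -0.11 ± 0.14 and was not called (adjusted p = 0.418). CDK7, the kinase that phosphorylates the activating site of CDK1, had 51.9 TPM in sensitive and 50.3 TPM in vehicle tumors and was not called (adjusted p = 0.724), and the B55 subunits PPP2R2A and PPP2R2D were not called either.

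In resistant versus sensitive tumors 11 of the 25 were higher and 0 lower. NEK2 changed by 1.64 ± 0.26 and TPX2 by 1.44 ± 0.23 (both adjusted p = 0.00135), AURKB by 1.26 ± 0.25 (adjusted p = 0.00553) and CCNA2 by 1.09 ± 0.22 (adjusted p = 0.00524). FBXO5, an inhibitor of the anaphase-promoting complex, had 3.15 TPM in resistant and 3.41 TPM in sensitive tumors and, like WEE1, was not called. In resistant versus vehicle tumors, where 11.5% of all tested genes were called higher, 16 of the 25 were lower and 0 higher, but 11 were lower after median-of-ratios scaling, and 12 were lower and 1 higher after quantile normalization. Of 7 genes for the catalytic and scaffold subunits of PP1 and PP2A, which undo mitotic phosphorylation, 4 were lower in sensitive versus vehicle tumors (2 and 1 under the other scalings) and 6 in resistant versus vehicle tumors (2 and 3). Of all tested genes 12.6% were lower in the first of these comparisons (1061 and 984 of 14079 under the other scalings). In the second, 32.5% were lower (2439 and 2770 of 14079). In resistant versus sensitive tumors PPP1CA was higher (adjusted p = 0.0460), though not after quantile normalization, and PPP1CB was lower (adjusted p = 0.0336). Of all tested genes 9.56% were called higher and 11.6% lower there.

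Of 14 regulators that act on promoters of this kind, 7 were lower in sensitive versus vehicle tumors and 0 higher, or 6 and 0 under either other scaling. Of all tested genes 12.6% were called lower and 3.16% higher in this comparison. FOXM1, the forkhead factor that binds them in G2, had 11.2 ± 4.13 TPM in sensitive tumors (SD, n = 3) and 142 ± 21.3 TPM in vehicle tumors (SD, n = 5), a change of -3.53 ± 0.30 (adjusted p = 1.26e-06). In resistant versus sensitive tumors 3 of the 14 were higher, against 9.56% of all tested genes, and 5 were higher after median-of-ratios scaling. The 3 were MYBL2 (2.46 ± 0.23, adjusted p = 6.22e-05), FOXM1 (1.68 ± 0.30, adjusted p = 0.00257) and LIN9 (0.55 ± 0.16, adjusted p = 0.0352), a subunit of the MuvB core. In the same comparison, in which 11.6% of all tested genes were called lower, NFYA and NFYB, subunits of the factor that binds CCAAT boxes, and RBL2 (p130), a pocket protein of DREAM, were lower, by -0.31 ± 0.10, -0.32 ± 0.12 and -0.30 ± 0.11 (adjusted p = 0.0253, 0.0373 and 0.0356), and NFYB lost its call under either other scaling. RBL1 (p107), another pocket protein, went the other way, by 0.57 ± 0.24, and was not called (adjusted p = 0.130). In resistant versus vehicle tumors 8 of the 14 were lower and 0 higher, or 6 and 0 under either other scaling. Of all tested genes 32.5% were called lower and 11.5% higher there. FOXM1, at 37.5 ± 14.4 TPM in resistant tumors, changed by -1.83 ± 0.26 against vehicle tumors (adjusted p = 6.35e-05). MYBL2 had 155 ± 45.6 TPM in resistant tumors and 185 ± 29.3 TPM in vehicle tumors and was not called (-0.16, adjusted p = 0.252), while the resistant means of CDK1, both B cyclins and PLK1 were 12.3% to 22.8% of their vehicle means.

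**Figure D5:**
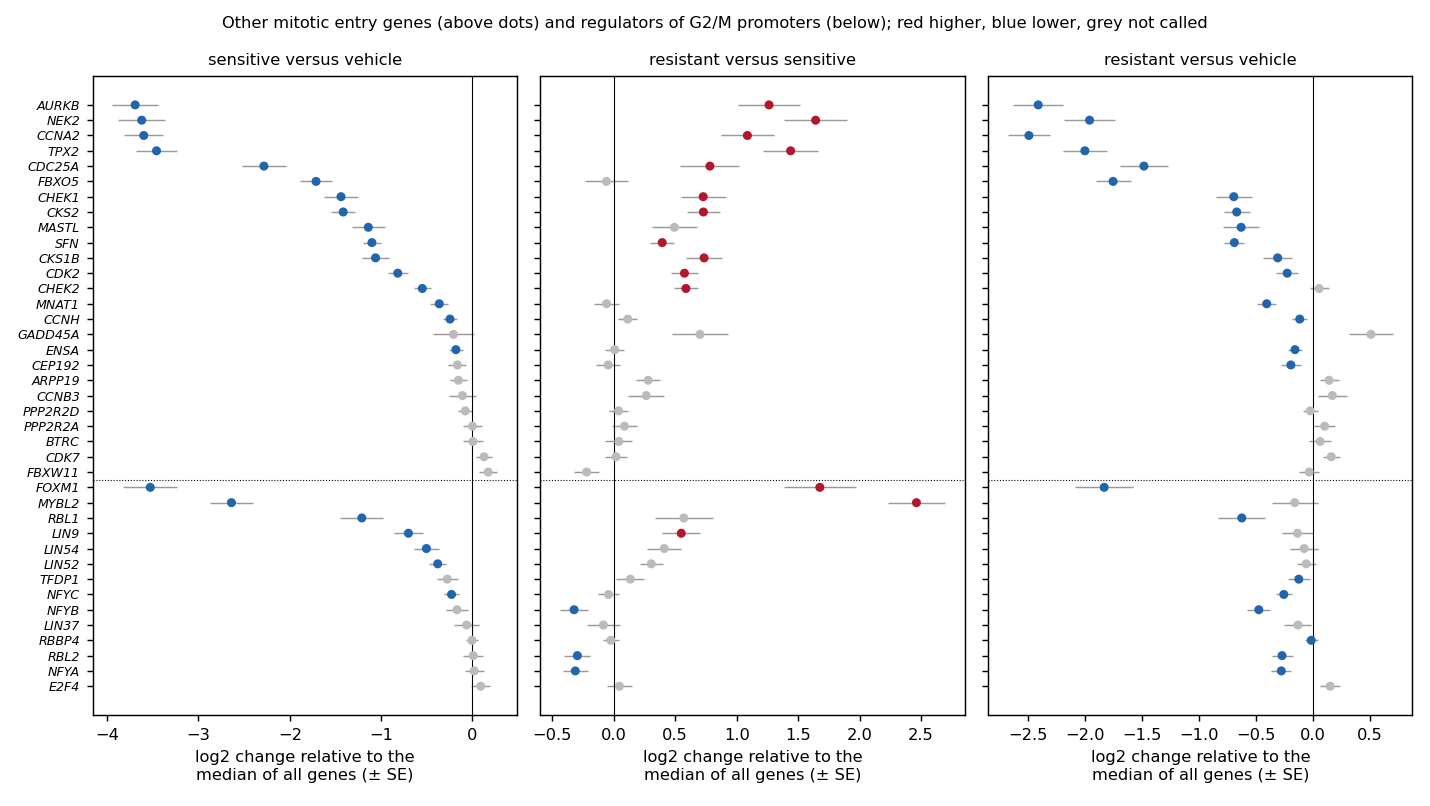
Log2 change relative to the median of all genes (x axes, ± SE) of 25 other mitotic entry genes (above the dotted line) and 14 regulators of G2/M promoters (below it) in the 3 comparisons, with red for called higher, blue for called lower and grey for not called. Calls rest on the change before the median was taken off, so a few blue points lie near 0, and MYBL2 is blue in sensitive versus vehicle, red in resistant versus sensitive and grey in resistant versus vehicle tumors.

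As a description of likeness, the tested genes whose log2(TPM + 1) followed CDK1 most closely over the 13 mice were FOXM1 (Pearson r = 0.997), PRC1 (0.996), CEP55, KIF4A and TACC3 (0.995 each). Those closest to WEE1 were UBR7 (0.957), SLBP (0.946), ZNF747 and VPS25 (0.945 each) and FAM111B (0.940). The 13 mice fall into 3 groups, and differences between the groups enter every such r.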

How the data were processed

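RNA of 26 libraries from 13 xenograft tumors was quantified by the authors, and the deposited table gives TPM per gene and library; per the submitters' processing notes, FastQC, STAR, HTSeq and RSEM and the builds GRCh38 and GRCm38 were used, with no version stated. The sources used here do not give the handling of mouse reads or the step that separates library A from B. P-values of the main fit weigh a difference between groups against the spread between mice, and those of the permutation tests come from reassigning mice to groups. TPM sums per library were 999847 to 999887, and the 1 entry with no gene name was left out. The members and gene lists were chosen with earlier results of these data known.

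For the fit, values of A and B were averaged per mouse on the log2(TPM + 1) scale. Printed TPM per mouse, the filter and the separation of groups used the plain mean of A and B. Genes with a mean of at least 1 TPM in at least 3 mice were kept. One limma model with the trend option (limma 3.58.1, R 4.3.3) covered all 13 mice, and genes were called at a two-sided adjusted p under 0.05 (Benjamini-Hochberg over 14079 genes). Log2 changes are relative to the median of all genes, because scaling moved that median by more than 0.1; this median, -0.07 in sensitive versus vehicle tumors, -0.05 in resistant versus sensitive tumors and -0.14 in resistant versus vehicle tumors, was taken off. Ratios used a pseudocount of 0.1 and exact permutation tests (SciPy 1.17.1). Named were all 10 members, 4 proliferation genes, and the 5 genes most like CDK1 and like WEE1. The rule for each other list was up to 6 genes by adjusted p plus its kinases and cyclins, and it was followed in part. Not every such gene is named in each comparison. FBXO5, PPP2R2A and PPP2R2D were added after their values were seen. The fit was tested on simulated data with 200 changed genes. Positions of genes follow GENCODE 29 (GRCh38). The batch label is 1 for every sample.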

Additional observations from a re-analysis of the deposited data

Results flagged for a closer look

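CDC25C in resistant tumor 9-8, at 0.790 TPM, lay apart from the other 4 resistant tumors, which had 2.03 to 2.31 TPM: its gap to the nearest of them was 0.815 of the group's range, above the critical value of 0.710 for 5 samples. Libraries A and B of this tumor had 1.09 and 0.490 TPM, so both were under the other 4 tumors' means. It was the only value so marked among 34 sets of 5 mice (20 levels and 14 ratios), and chance alone marks about 1 in 20 such sets. The same tumor had the lowest level of 6 of the 10 genes and of MKI67 among resistant tumors.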

How the results depend on the processing

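Of the 10 genes, 10 were called lower in sensitive versus vehicle tumors in all 24 alternatives. In resistant versus sensitive tumors the count of genes called higher was 9, and it was 6 to 9 with a mouse left out, 7 without the filter on low values, with B libraries alone or with 26 libraries as units, and 8 with the 2 groups alone. In resistant versus vehicle tumors the count called lower was 9 or 10. Paired analysis was by the library letter only: the A minus B differences of different mice correlated at -0.105 to 0.119 (median -0.003), so the letter does not pair mice, and with the letter as a replicate block the counts were 10, 8 and 10. In that fit BORA was not called in resistant versus sensitive tumors (adjusted p = 0.112). Besides the mice left out, BORA lost that call with B libraries alone (0.381) and 26 libraries as units (0.104), CDC25C with B libraries alone (0.130), 26 libraries as units (0.0550) and no filter (0.0612), and PKMYT1 with no filter (0.0527) and the 2 groups alone (0.0552). Values of 2 uncalled results turned their sign, and the cause was not tested. WEE1 in resistant versus sensitive tumors was -0.0212 with B libraries alone, and -0.0289 to 0.253 with a mouse left out, the lowest being without resistant 9-6. CDC25B/CDC25C in the same comparison was 0.06, but -0.13 with A libraries alone and -0.45 to 0.53 with a mouse left out. The other ratios kept their direction in all alternatives run, and ratios with a mouse left out were computed without a test. Depth is unknown, so the precision of the lowest levels, those of CDC25C, cannot be given from counts.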
